A study of Rattus norvegicus with 72 samples.

Results

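The mevalonate pathway genes were Acat2, Hmgcs1, Mvk, Pmvk, Mvd, Idi1, Fdps and Fdft1, the enzymes that build squalene from acetyl-CoA. They were chosen by name as members of the pathway, with earlier results of these data known. A gene counted as measured where the platform annotation gave a probe set its symbol and no other. By that rule 7 of the 8 genes were measured, by 11 of the 31042 probe sets on the array (14217 genes had such a probe set). Hmgcs1 was not analysed here.

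The series holds 72 Affymetrix rat expression arrays of total RNA in 15 groups. Of these, 60 came from rats in pregnancy or lactation, kept at standard gravity (labelled standardG) or in hypergravity (hyperG), with 5 arrays for each of mammary gland, liver and adipose tissue in each condition. A further 12 arrays covered pregnant mammary gland in microgravity, with a flight control and a vivarium control, 4 arrays each. The labels give no strain, age, day of pregnancy or lactation, or size or length of the gravity exposure, and no treatment or allele is named in any group. Each of these 60 is named by a letter for its tissue and a code for its rat, and the 20 codes recur in all 3 tissues (M216S and L216S are the mammary gland and liver of 1 rat, and the last letter marks standardG or hyperG). The labels do not say that arrays lettered A to D come from separate animals, so for those 12 arrays the spread between samples may be technical.

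Acat2, the cytosolic thiolase, joins acetyl units at the start of the pathway. Mevalonate is then phosphorylated by Mvk and Pmvk and decarboxylated by Mvd to isopentenyl diphosphate, which Idi1 isomerises. Fdps condenses these units to farnesyl diphosphate, from which ubiquinone, dolichol and protein prenyl groups branch off, and Fdft1 commits it to sterols by making squalene. The genes are textbook targets of the sterol-regulated factor SREBP2, which acts with NF-Y and Sp1 at their promoters. Liver is a major site of this synthesis, and the lactating mammary gland also makes cholesterol that leaves in milk fat.

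RefSeq promoters were matched by symbol for 5 of the 7 measured genes (Acat2, Mvk, Mvd, Idi1 and Fdps). The 250 bases before the start site are shown for Idi1, Fdps and Mvd, the genes with the 3 largest stage differences in the mammary gland, and for Mvk, a pathway neighbour with no call between stages or gravity conditions. Each is read 5′ to 3′ on the gene's strand, which is the minus strand of GRCr8 for all 4, and the capitals mark the NF-Y letters CCAAT or their complement ATTGG.
Idi1, chr17:66547525-66547774: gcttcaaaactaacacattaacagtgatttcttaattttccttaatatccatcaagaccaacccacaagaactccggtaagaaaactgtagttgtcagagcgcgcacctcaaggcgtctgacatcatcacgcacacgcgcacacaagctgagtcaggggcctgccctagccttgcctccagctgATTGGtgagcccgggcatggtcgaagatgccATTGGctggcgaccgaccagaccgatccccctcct
Fdps, chr2:176804817-176805066: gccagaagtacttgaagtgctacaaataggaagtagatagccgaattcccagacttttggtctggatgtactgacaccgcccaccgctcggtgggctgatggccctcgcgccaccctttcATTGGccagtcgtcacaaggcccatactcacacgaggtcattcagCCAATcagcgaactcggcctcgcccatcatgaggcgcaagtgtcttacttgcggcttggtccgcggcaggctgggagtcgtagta
Mvd, chr19:67414975-67415224: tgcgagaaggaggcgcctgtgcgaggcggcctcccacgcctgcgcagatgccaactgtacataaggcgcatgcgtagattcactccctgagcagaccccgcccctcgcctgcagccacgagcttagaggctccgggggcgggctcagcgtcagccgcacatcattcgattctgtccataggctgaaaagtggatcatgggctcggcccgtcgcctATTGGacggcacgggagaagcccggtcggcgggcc
Mvk, chr12:47819504-47819753: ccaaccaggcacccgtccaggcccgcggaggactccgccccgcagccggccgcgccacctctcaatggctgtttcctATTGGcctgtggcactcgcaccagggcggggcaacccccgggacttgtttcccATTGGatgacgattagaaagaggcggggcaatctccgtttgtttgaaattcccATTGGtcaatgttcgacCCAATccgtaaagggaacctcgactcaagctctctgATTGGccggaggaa

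CCAAT was found on either strand in 4 of the 5 promoters, and in 34% of the 33469 RefSeq promoters searched over the same 250 bases. Mvk held 5 matches, Idi1 and Fdps 2 each and Mvd 1, and Acat2 was the promoter with none. The Sp1 letters GGGCGG were in 4 of 5 promoters against 30.5% of all, the nuclear receptor motif TGACCT in 1 (Fdps) against 14.1%, and the E-box CACGTG in 0 against 5.59%. A sterol regulatory element spelled TCACNCCAC was in 0 of 5 against 0.974%, which says only that these letters are not in these windows. Each motif was searched on both strands, and no match overlapped another. These matches describe letters, not bound sites.

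Signals are log2 values from RMA, and a gene was represented by its brightest probe set over the arrays of a comparison. A difference was called where limma's adjusted p, corrected over all 31042 probe sets, was under 0.05. Array medians ran from 4.32 to 4.56 in the 60 arrays and from 4.87 to 5.02 in the 12, so levels were compared only within each set. Mammary array M210H read 3.11 for the mean of 6 milk protein genes and 9.91 for 9 adipocyte genes, and adipose array A210H read 13.07 and 7.19, the reverse of their tissues. Both were left out, which leaves 70 arrays and 4 in the lactating hyperG groups of mammary gland and adipose tissue. In the mammary fit, the 9 hepatocyte genes averaged 9.89 in M56H and 6.66 in M52S, where the median array read 6.14 and 2.91 lower, and the 10 muscle genes 8.44 in M50H and 8.24 in M212H. Muscle genes also stood out in A48S (12.40), A217H (10.99), VIVA (7.78) and VIVC (8.08), and milk protein genes, raised but far under the gland, in L55H (6.49), L214S (5.93) and A55H (6.53). The defining markers of each tissue were high in every other array of it: milk protein genes averaged at least 12.63 in mammary arrays, hepatocyte genes at least 12.11 in liver and adipocyte genes at least 9.43 in adipose tissue. In whole tissue, fewer cells of a type and less RNA per cell cannot be told apart.

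**Figure D1:**
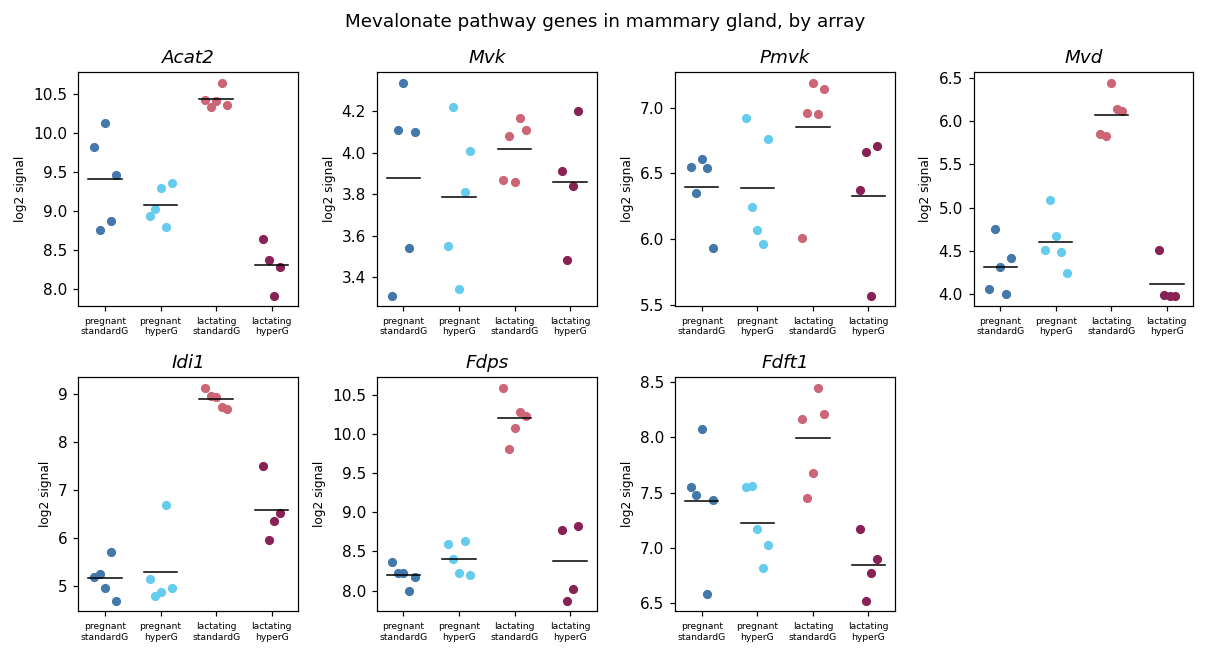
Log2 signal of the 7 measured genes in mammary gland, 1 point per array and a bar at the mean of each group of 4 or 5 arrays (M210H left out); each panel has its own vertical scale that does not start at 0. Idi1, Fdps, Mvd and Acat2 lie above every pregnant standardG array in the lactating standardG group, and all 4 lactating hyperG arrays lie below that group.

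In the mammary gland at standard gravity, 4 of the 7 genes were higher in lactation than in pregnancy and 0 were lower, where 34.1% of all probe sets were called (16.8% higher and 17.3% lower). The median log2 difference of the 7 genes was 1.02, and that of all probe sets -0.01. Idi1, the isomerase, changed most. It read 9.13, 8.96, 8.94, 8.73 and 8.68 in the lactating arrays and 5.18, 5.25, 4.96, 5.71 and 4.69 in the pregnant arrays. The lowest lactating array was thus far above the highest pregnant one. The means were 8.89 ± 0.18 and 5.16 ± 0.38 (SD, n = 5 each), a 13.3-fold difference (log2 3.73, SE 0.32, limma adjusted p = 3.9e-07). Its dimmer probe set, 1368878_at, differed by 4.19 (SE 0.35, adjusted p = 2.7e-07).

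Fdps, which makes farnesyl diphosphate, read 10.59, 9.81, 10.08, 10.28 and 10.23 in lactation and 8.37, 8.23, 8.22, 8.0 and 8.18 in pregnancy. The groups did not overlap, and the difference was 3.99-fold (log2 2.00, SE 0.18, adjusted p = 7.1e-07). Mvd, the decarboxylase, read 5.85, 5.83, 6.45, 6.14 and 6.12 against 4.06, 4.75, 4.31, 4.0 and 4.41. It too separated the stages, by 3.42-fold (log2 1.77, SE 0.18, adjusted p = 1.8e-06), although its pregnant values lie close to the array medians. Acat2, the entry thiolase, read 10.42, 10.33, 10.41, 10.65 and 10.36 in lactation and 9.83, 8.76, 10.13, 8.88 and 9.46 in pregnancy. Here the lactating arrays were tightly grouped and the pregnant ones spread over more than a log2 unit, and the difference was 2.03-fold (log2 1.02, SE 0.22, adjusted p = 0.0016).

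The kinases and squalene synthase were not called. Fdft1 was 7.99 ± 0.42 in lactation and 7.43 ± 0.54 in pregnancy (log2 0.57, 95% interval 0.05 to 1.08, adjusted p = 0.086), and was called without M44S (adjusted p = 0.03) or without M201S (adjusted p = 0.042). Pmvk, the phosphomevalonate kinase, was 6.85 ± 0.48 and 6.40 ± 0.28 (log2 0.45, interval -0.09 to 1.00, adjusted p = 0.2). Its lactating array M216S read 6.01 where the other 4 lay between 6.95 and 7.19, and without M216S the gene was called (log2 0.66, adjusted p = 0.043). Mvk, the mevalonate kinase, was 4.02 ± 0.14 and 3.88 ± 0.43, below the array medians in both stages (log2 0.14, interval -0.28 to 0.56, adjusted p = 0.67). Its other probe sets differed in sign, with -0.43 on 1368232_at (interval -0.85 to -0.01, adjusted p = 0.11) and 0.11 on 1387119_at.

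Steps that follow squalene moved the same way in this comparison. Of 10 measured genes from squalene to cholesterol 7 were higher and 0 lower, with a median log2 difference of 1.31. Cyp51, the lanosterol demethylase, was 13.6-fold higher (11.18 ± 0.19 against 7.41 ± 0.63), Msmo1, the methyl sterol oxidase, 5.54-fold and Sqle, the squalene epoxidase, 5.14-fold. Of 8 regulators of sterol synthesis 4 were higher and 3 lower: Insig1, which retains the SREBP complex in the endoplasmic reticulum, was 14.5-fold higher and Srebf2, the gene of SREBP2, 4.23-fold. Suppliers of acetyl-CoA and ketone body enzymes had 4 of 7 higher and 0 lower, among them the citrate carrier Slc25a1 (log2 1.80) and the acetoacetyl-CoA synthetase Aacs (1.97). The lists of other exits went the other way. Isoprenoid branch genes had 1 of 10 higher and 5 lower, with the prenyl transferase subunits Fntb at -1.44 and Fnta at -1.06, and sterol efflux and bile acid genes had 1 of 9 higher and 5 lower, led by the sterol transporter Abcg1 at -2.07. Beside these, luminal epithelium markers had 6 of 10 lower (list mean 8.36 to 8.49 in lactating and 9.16 to 9.79 in pregnant arrays) and macrophage markers 6 of 10 lower (7.06 to 7.41 and 8.18 to 8.56). The part of these in the mevalonate genes was not tested.

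At hypergravity the lactating gland did not show that rise as a whole. Of the 7 genes 1 was higher in lactation and 1 lower, where 29.3% of all probe sets were called, and the median of the 7 was -0.06. Idi1 was higher again, at 6.59 ± 0.65 (n = 4) against 5.29 ± 0.79 (n = 5), by 2.45-fold (log2 1.30, SE 0.34, adjusted p = 0.0087, but 0.065 in a fit of the groups compared alone). The groups overlapped through M56H, the array with hepatocyte markers, which read 6.69 where the other pregnant hyperG arrays lay between 4.79 and 5.14. Without M56H the difference was 1.65 (adjusted p = 7.7e-05). It was 1.83 without M212H, M50H, M56H, M52S and M57S, left out together for markers of another tissue.

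Acat2 was lower in lactation at hypergravity. It read 8.65, 8.38, 7.92 and 8.29 in the lactating arrays and 8.94, 9.03, 9.30, 8.80 and 9.36 in the pregnant ones, with no overlap (log2 -0.78, SE 0.23, adjusted p = 0.018). The call ended without M217H (log2 -0.65, adjusted p = 0.068), and it ended with M210H kept in its labelled group (-0.52, adjusted p = 0.17). Mvd had -0.49 (adjusted p = 0.064), and was called without M203H (-0.62, adjusted p = 0.032) or M60H (-0.58, adjusted p = 0.036). Fdps was 8.37 ± 0.50 and 8.41 ± 0.20, a difference of -0.04 with an interval of -0.45 to 0.37. Fdft1 had -0.38 (adjusted p = 0.3), but its dimmer probe set, 1389906_at, was called at -1.12 (adjusted p = 0.015). Mvk was 3.86 ± 0.29 and 3.79 ± 0.35, with -0.53 on 1368232_at (adjusted p = 0.07) and 0.17 on 1387119_at. Downstream, 3 of the 10 genes from squalene to cholesterol were higher and 1 lower: Cyp51 was at 2.02 and Sqle at 1.32, and Hsd17b7, a sterol reductase, at -1.42. Among the regulators Insig1 was at 2.28 and Srebf2 at 1.87, while Srebf1, the gene of the SREBP1 factors, was at -3.18.

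Between gravity conditions, the pregnant mammary gland showed 0 called genes of the 7, where limma called 0.00322% of all probe sets (0 of the 7 had an unadjusted p under 0.05). Differences ran from -0.33 for Acat2 to 0.30 for Mvd, and the interval for Idi1 was -0.55 to 0.82.

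In the lactating mammary gland, 5 of the 7 genes were lower at hypergravity than at standard gravity and 0 higher, where 9.43% of all probe sets were called (4.49% higher and 4.94% lower). The median of the 7 was -1.82, and that of all probe sets 0.01. Idi1 read 7.50, 5.96, 6.36 and 6.52 at hypergravity, all below the 8.68 to 9.13 of standard gravity (4.93-fold lower, log2 -2.30, SE 0.34, adjusted p = 2.3e-04). Acat2, at the start of the pathway, fell 4.36-fold from the 10.33 to 10.65 of standard gravity (log2 -2.12, SE 0.23, adjusted p = 1.0e-05). Its hyperG values, given above, were also under every pregnant array of the gland.

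Mvd read 4.51, 3.99, 3.98 and 3.98, with M203H above 3 nearly equal arrays that lie below the array medians (3.90-fold lower, log2 -1.96, SE 0.19, adjusted p = 3.5e-06). Fdps read 8.77, 7.87, 8.02 and 8.83 (3.54-fold lower, log2 -1.82, SE 0.20, adjusted p = 7.7e-06). Fdft1, squalene synthase, read 7.17, 6.52, 6.77 and 6.90 against 8.17, 7.45, 7.68, 8.45 and 8.21, and was the smallest of the 5 falls (2.22-fold, log2 -1.15, SE 0.26, adjusted p = 0.0075). Its other probe set was at -1.80 (adjusted p = 0.0012). Pmvk had -0.52 (interval -1.10 to 0.06, adjusted p = 0.32) and Mvk -0.16 (interval -0.61 to 0.29). All 5 calls were kept in each of the 18 alternatives run for them, the 9 arrays left out in turn included.

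Of the 10 genes from squalene to cholesterol 4 were lower and 0 higher, with Hsd17b7 at -2.20, Msmo1 at -1.48 and Nsdhl, a sterol dehydrogenase, at -0.89. Among the regulators 3 of 8 were lower: Srebf1 at -2.21, Stard4, a sterol carrier, at -2.13 and Insig1 at -1.89. Acss2, the acetyl-CoA synthetase, was at -2.04 and Acly, the citrate lyase, at -0.60, among 3 of 7 lower. Efflux genes had 2 of 9 higher, Soat1, which esterifies cholesterol for storage, at 1.47 and Abcg1 at 1.18. Luminal epithelium markers had 6 of 10 higher (list mean 9.13 to 9.83 at hypergravity and 8.36 to 8.49 at standard gravity), macrophage markers 3 of 10 higher (7.68 to 8.34 and 7.06 to 7.41) and milk protein genes 1 of 6 lower (12.94 to 13.02 and 13.10 to 13.22). Their part in the result was not tested. Without the arrays that carried markers of another tissue 5 of the 7 mevalonate genes were lower again, with Idi1 at -2.09 and Acat2 at -2.15.

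The change of the stage effect with gravity was tested directly. It was called for 4 of the 7 genes, all lower at hypergravity, where 4.03% of all probe sets were called (2.18% higher and 1.85% lower). Mvd had -2.26 (SE 0.26, adjusted p = 1e-04), Fdps -2.03 (SE 0.27, adjusted p = 0.00025), Idi1 -2.44 (SE 0.47, adjusted p = 0.0055) and Acat2 -1.80 (SE 0.32, adjusted p = 0.003). Fdft1 had -0.95 (interval -1.70 to -0.19, adjusted p = 0.19), Pmvk -0.52 and Mvk -0.06. The other Fdft1 probe set, 1389906_at, had -1.60 (adjusted p = 0.052), and the mean of both was called (-1.27, adjusted p = 0.049). These tests, the stage comparison at standard gravity and the gravity comparison in lactation use the same 5 lactating standardG arrays.

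**Figure D2:**
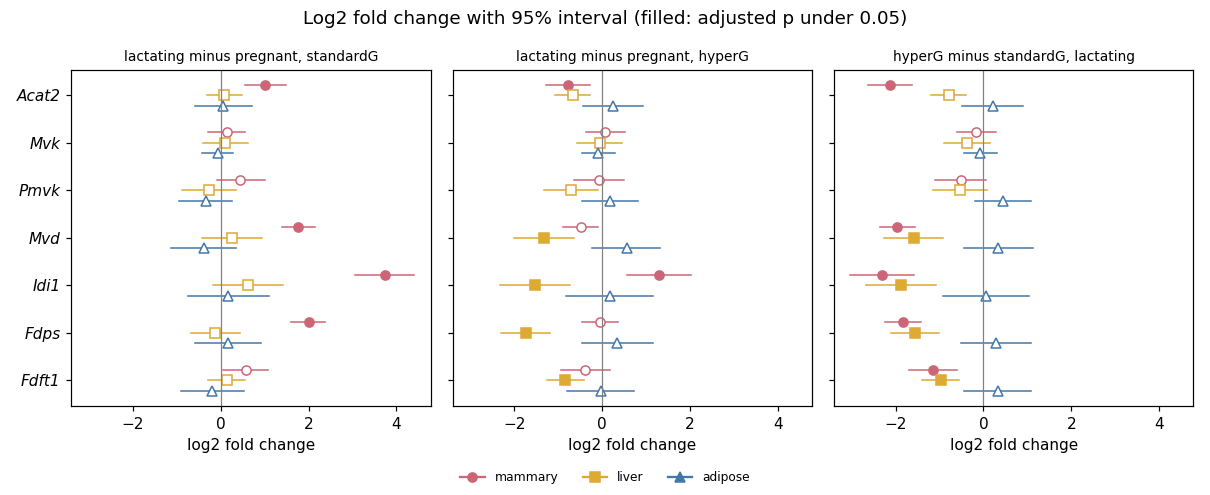
Log2 fold changes of the 7 genes in 3 comparisons, with 95% intervals from limma, in mammary gland (circles), liver (squares) and adipose tissue (triangles); filled symbols have an adjusted p under 0.05. The mammary stage effect at standard gravity reaches 3.73 for Idi1, liver and mammary gland both lie below 0 for gravity in lactation, and every adipose symbol is open.

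In the liver at standard gravity limma called no stage difference: 0 of the 7 genes were called, where 0.622% of all probe sets were, and 0 had an unadjusted p under 0.05. Idi1 had the largest difference, 0.63 (interval -0.17 to 1.42), and Fdps was 11.58 ± 0.29 in lactation and 11.70 ± 0.12 in pregnancy. Gravity in pregnancy likewise gave 0 calls by limma (background 0.103%, 0 with an unadjusted p under 0.05), and differences ran from -0.21 for Mvk to 0.28 for Idi1. In the tests within liver Mvk was read by probe set 1368232_at, its brightest there, and in those of the other tissues and between tissues by 1375401_at.

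**Figure D3:**
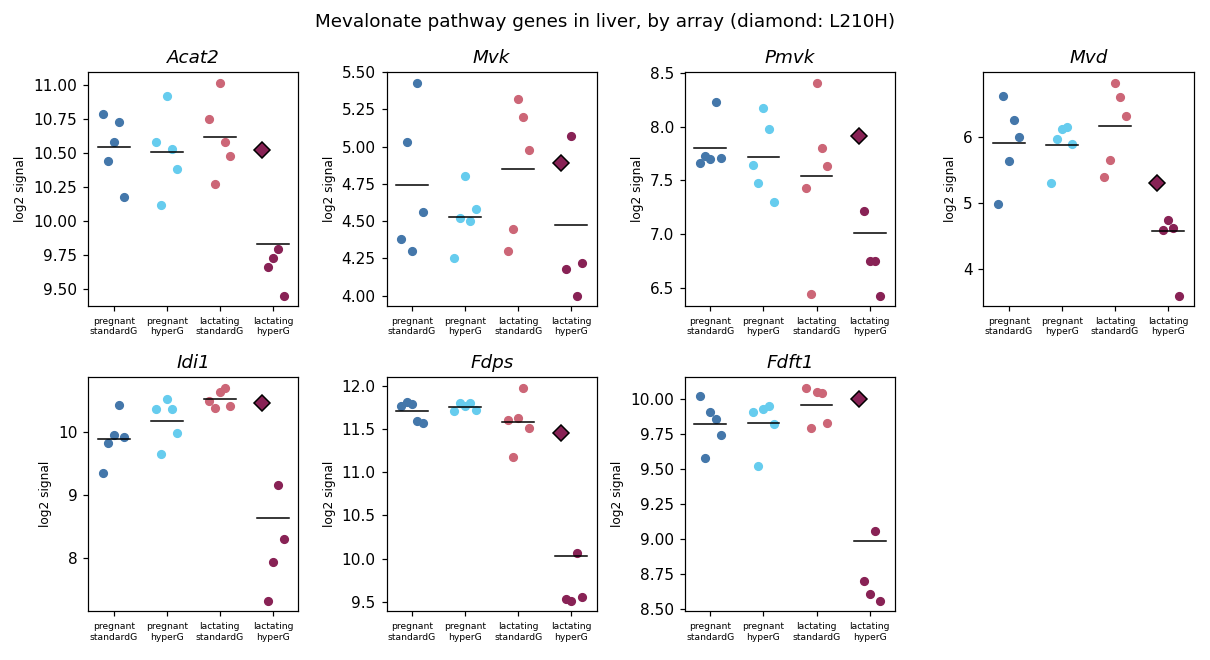
Log2 signal of the 7 genes in liver, 1 point per array (5 per group) and a bar at the group mean; the diamond is L210H, and each panel has its own scale that does not start at 0. In the lactating hyperG group the other 4 arrays lie low for Idi1 (7.33 to 9.16), Fdps (9.51 to 10.07) and Fdft1 (8.56 to 9.06), and L210H lies near the other livers.

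Compared with the lactating liver at standard gravity, that at hypergravity was lower for 4 of the 7 genes and higher for 0, where 0.406% of all probe sets were called (0.0934% higher and 0.312% lower). The median of the 7 was -0.97, and that of all probe sets 0.03. Fdps read 11.46, 9.53, 9.51, 10.07 and 9.55 at hypergravity and 11.61, 11.18, 11.63, 11.98 and 11.51 at standard gravity, and only L210H of the hyperG arrays overlapped (2.95-fold lower, log2 -1.56, SE 0.26, adjusted p = 0.013). Idi1 read 10.45, 7.33, 7.94, 9.16 and 8.30 against 10.48, 10.37, 10.63, 10.69 and 10.40, again with only L210H in the range of standard gravity (log2 -1.88, SE 0.38, adjusted p = 0.035). Its dimmer probe set, 1368878_at, had -1.99 and was not called (adjusted p = 0.068). Mvd read 5.31, 4.59, 4.74, 4.62 and 3.60 against 5.40, 5.66, 6.83, 6.61 and 6.32, with no overlap (log2 -1.59, SE 0.33, adjusted p = 0.036).

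Fdft1 read 8.70, 8.61, 9.06 and 8.56 in 4 of the hyperG arrays against 10.08, 9.79, 10.05, 10.04 and 9.83 at standard gravity, and L210H lay within the latter range (log2 -0.97, SE 0.20, adjusted p = 0.039). Its other probe set, 1389906_at, had -1.24 and was not called (adjusted p = 0.087). Acat2 showed the same picture at a smaller size, 9.83 ± 0.40 against 10.62 ± 0.28, and was not called (log2 -0.79, interval -1.19 to -0.39, adjusted p = 0.08). Pmvk had -0.53 and Mvk -0.37, with intervals that include 0. The other Mvk probe sets lay above 0, at 0.02 (1375401_at) and 0.15 (1387119_at). Of the downstream genes 5 of 10 were lower and 0 higher, with Sqle at -2.41 and Msmo1 at -1.52. Acly was at -0.88. Hepatocyte markers averaged 12.13 to 12.35 at hypergravity and 12.11 to 12.28 at standard gravity, with 0 of 9 called.

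The liver calls were less firm than those of the mammary gland. L210H is from the rat code of the exchanged arrays M210H and A210H, and it was the highest of its group for 6 of the 7 genes. Without it 5 of the 7 were lower: Idi1 had -2.33 (adjusted p = 1.5e-04), Fdps -1.92 (1.3e-06), Mvd -1.78 (0.012), Fdft1 -1.23 (5.9e-05) and Acat2 -0.96 (0.0084). Without any other of the 10 arrays, between 1 and 2 of the 7 were called lower. There were 2 without L216S, L201S or L217H, and 1 without L203H, L212H, L219S, L214S, L206H or L202S. Over the 10 refits limma called between 34 and 244 of all probe sets, against 126 with all arrays. Fdps kept its call each time. The log2 changes ran from -2.33 (without L210H) to -1.55 (without L203H) for Idi1 and from -1.92 to -1.43 for Fdps. In a fit of only the groups compared limma called 0, with Fdps at -1.56 (adjusted p = 0.2). The call of Mvd also ended with quantile normalization repeated (-1.52, adjusted p = 0.053).

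**Figure D4:**
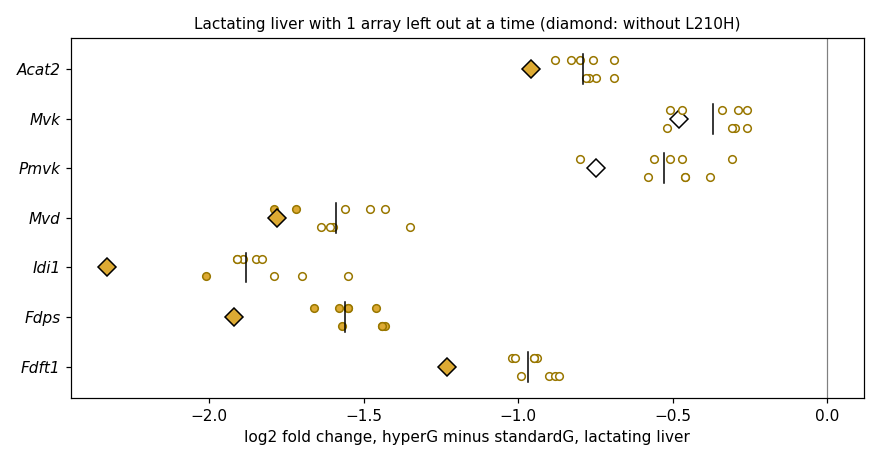
Log2 fold change of each gene in lactating liver, hyperG minus standardG, refitted without 1 array at a time (upper points: a standardG array left out, lower points: a hyperG array, diamond: L210H); the bar is the value with all arrays and filled symbols have an adjusted p under 0.05. On the brightest probe sets, shown here, every value lies below 0, and the diamond is lowest for Idi1 (-2.33), Fdps (-1.92), Fdft1 (-1.23) and Acat2 (-0.96).

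Against the pregnant liver at hypergravity the lactating one was lower for 4 of the 7 genes, where 3.23% of all probe sets were called (1.22% higher and 2.01% lower). This comparison shares its 5 lactating hyperG arrays with the one above. Fdps had -1.74 (SE 0.26, adjusted p = 0.00064) with no overlap, since the pregnant hyperG arrays lay between 11.71 and 11.80. Idi1 had -1.53 (adjusted p = 0.029), Mvd -1.32 (0.028) and Fdft1 -0.84 (0.023), and Acat2 was at -0.67 (0.058). Downstream, 8 of 10 genes from squalene to cholesterol were lower, Sqle by 4.56-fold, Lss, the lanosterol synthase, by 3.46-fold and Msmo1 by 2.65-fold. Without L210H 5 of the 7 were lower. Only 1 was called lower without L50H, L203H, L56H or L206H, and 2 without L59H, L212H or L60H. Over the 10 refits limma called between 639 and 1136 of all probe sets, against 1003 with all arrays. Without L55H, Mvd was at -1.30 (adjusted p = 0.054) and Acat2 at -0.77 (0.038). The stage by gravity test in liver called 0 of the 7 genes, where limma called 0.126% of all probe sets (0.0515% higher and 0.0741% lower). Idi1 had -2.16 (adjusted p = 0.13) and Fdps -1.61 (0.093). Mvk had -0.16, but 0.18 and 0.33 on its other probe sets. Without L210H, Fdps (-1.97, adjusted p = 8.3e-05), Idi1 (-2.62, 0.0029) and Fdft1 (-1.24, 0.0029) were called. Limma then called 119 of all probe sets, against 39 with all arrays.

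In adipose tissue 0 of the 7 genes were called in any of the 5 comparisons, and limma called at most 0.00322% of all probe sets there. None of the genes had an unadjusted p under 0.05 in them. The arrays spread widely: Idi1 in pregnancy at standard gravity read 6.68, 5.73, 6.66, 7.85 and 4.96, and Fdps 8.31, 7.61, 7.23, 9.43 and 7.50. A57S was the highest of that group and A48S, the array with muscle markers, the lowest for Idi1. For gravity in lactation the interval of Idi1 was -0.93 to 1.03 and that of Fdps -0.52 to 1.09, and the mammary values of -2.30 and -1.82 lie outside these.

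The difference between tissues was then tested. The stage effect at standard gravity was larger in the mammary gland than in liver for 4 of the 7 genes (22.1% of all probe sets called, 10.6% higher): Idi1 by 3.10 (SE 0.57, adjusted p = 5.6e-05), Fdps by 2.12 (0.00011), Mvd by 1.52 (0.0081) and Acat2 by 0.94 (0.048). Against adipose tissue the same 4 were larger (21% called, 9.23% higher), Idi1 by 3.56 (7.6e-06), Mvd by 2.16 (0.00023), Fdps by 1.83 (8e-04) and Acat2 by 0.96 (0.045). The mammary values enter both, and the calls of Acat2 ended in 18 and 16 of 30 alternatives, with adjusted p up to 0.11 and 0.16.

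For gravity in lactation, the fall of Acat2 was larger in the mammary gland than in liver by 1.34 log2 units (log2 difference -1.34, SE 0.36, adjusted p = 0.019, where 4.7% of all probe sets were called). That was the 1 gene called, and it was not called without L210H (-1.16, adjusted p = 0.052) or without M217H (-1.21, adjusted p = 0.061). For Idi1 the difference between the tissues was -0.42 with an interval of -1.61 to 0.76, and for Fdps -0.26 (-1.11 to 0.58), so neither a like fall nor an unequal one was shown. Against adipose tissue the gravity difference was more negative in the mammary gland for 5 of the 7 genes (4.67% called, 2.26% lower). In adipose tissue itself the means of these genes were slightly higher at hypergravity and not called, such as Fdft1 at 7.38 against 7.05. The differences between the tissues were -2.35 for Idi1 (adjusted p = 0.011), -2.33 for Acat2 (2.2e-05), -2.30 for Mvd (0.00069), -2.11 for Fdps (0.00093) and -1.48 for Fdft1 (0.024). The call of Fdft1 ended without A203H (adjusted p = 0.076), M212H (0.058), M214S (0.053) or A206H (0.054).

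**Figure D5:**
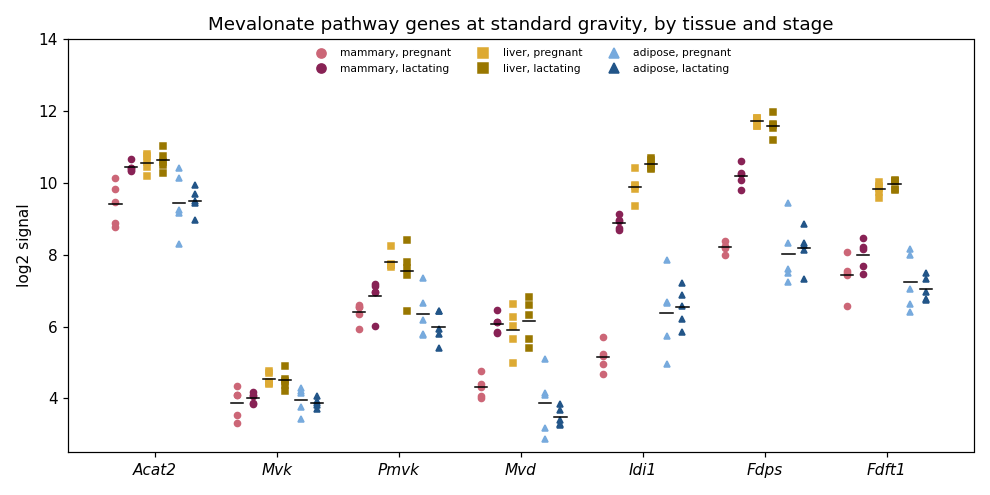
Log2 signal at standard gravity, 1 point per array and a bar at the mean of 5, in mammary gland (circles), liver (squares) and adipose tissue (triangles), pale for pregnancy and dark for lactation; the scale does not start at 0 and levels compare within a gene, not between genes. For Idi1, Fdps and Mvd the mammary points shift towards the liver in lactation. In pregnancy they lie within the adipose range for Fdps and Mvd, and in its lower part or below for Idi1.

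At standard gravity liver had the highest mean in both stages, and the calls between the mammary gland and the other tissues differed by stage. In pregnancy liver was highest for all 7 genes: all 7 were lower in the mammary gland than in liver (50.4% of all probe sets called, 25.3% lower) and all 7 higher in liver than in adipose tissue (36% called, 17.7% higher). Idi1 was 9.89 ± 0.38 in liver, 6.38 ± 1.09 in adipose tissue and 5.16 ± 0.38 in the mammary gland, 26.6-fold lower there than in liver. The next step of the order, mammary gland below adipose tissue, was called for Idi1 alone (log2 -1.22, adjusted p = 0.012, 41.2% of all probe sets called). That call ended without A57S (-0.85, adjusted p = 0.087) and in a fit of the 2 groups alone (adjusted p = 0.062). The other 6 genes did not differ beyond their spread between mammary gland and adipose tissue, with intervals such as -0.40 to 0.76 for Fdps. Without A57S, however, Mvd was called higher in the mammary gland (0.73, adjusted p = 0.05 after rounding). Mvk was not called between mammary gland and liver without the arrays that carried markers of another tissue (-0.36, adjusted p = 0.15), nor between liver and adipose tissue without A44S (0.45, adjusted p = 0.075) or on probe set 1387119_at (0.20, adjusted p = 0.43).

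In lactation liver still had the highest mean for all 7 genes. The mammary gland was called lower than liver for 4 of the 7 genes (35.4% of all probe sets called, 15.8% lower). These were Fdft1 by 3.91-fold, Idi1 by 3.09-fold (8.89 ± 0.18 against 10.52 ± 0.14), Fdps by 2.61-fold and Mvk by 1.40-fold. Acat2 (10.43 ± 0.12 and 10.62 ± 0.28, interval of the difference -0.69 to 0.32) and Mvd (6.08 ± 0.26 and 6.17 ± 0.61, interval -0.71 to 0.53) did not differ beyond their spread. Pmvk had -0.69 (adjusted p = 0.06), and was called with the rat code as a replicate block (adjusted p = 0.04) and in 7 other alternatives. The call of Mvk (adjusted p = 0.042) ended without M216S, M201S, M219S, L219S, L214S or L202S (adjusted p up to 0.15). Its other probe sets were called too, 1368232_at at 2.19-fold lower (log2 -1.13, adjusted p = 3.1e-05) and 1387119_at at -0.61 (adjusted p = 0.0083).

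Against adipose tissue the lactating mammary gland was higher for 6 of the 7 genes (29.9% called, 14.8% higher), Mvd by 5.98-fold, Idi1 by 5.07-fold and Fdps by 4.04-fold. Pmvk, at 1.80-fold, lost its call without A216S, M219S or M202S (adjusted p 0.085, 0.06 and 0.056). Liver was higher than adipose tissue for all 7 (33% called, 15.1% higher), Idi1 by 15.7-fold and Fdps by 10.6-fold. Adipose RNA was extracted by another method than RNA of the other tissues. In levels against adipose tissue at either stage, method and tissue cannot be told apart.

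In the 12 arrays of the microgravity set, all of pregnant mammary gland, 0 of the 7 genes were called in any of the 3 comparisons. Limma called 0.367% of all probe sets between microgravity and flight control (0.271% higher and 0.0966% lower), 0.493% between microgravity and vivarium control (0.319% and 0.174%) and 0.00322% between the controls. Mvk, read here by 1368232_at, had the smallest unadjusted p. It read 3.36, 3.23, 3.03 and 3.45 in microgravity, 3.44, 3.85, 3.55 and 4.16 in the flight control and 3.84, 3.70, 3.59 and 3.84 in the vivarium control. Microgravity arrays were below every vivarium array and overlapped the flight control by 1 array, at levels below the array medians. The difference was -0.48 from each control (adjusted p = 0.21 and 0.27, limma's unadjusted p = 0.0085 and 0.0095). Another Mvk probe set, 1375401_at, had -0.15 from the flight control and 0.18 from the vivarium control, and 0 of the 3 Mvk probe sets were called.

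Idi1 was 6.59 ± 0.08 in microgravity, 6.63 ± 0.32 in the flight control and 6.86 ± 0.35 in the vivarium control (SD, n = 4 each), and its interval against the flight control was -0.43 to 0.36. Fdft1 was 6.30 ± 0.21, 6.60 ± 0.35 and 6.70 ± 0.27, with -0.40 against the vivarium control (adjusted p = 0.53). Fdps, Mvd, Acat2 and Pmvk differed by at most 0.32 log2 units between any of the groups. Of the other pathway genes Slc25a1 was higher in microgravity, by 0.93 against the flight control (adjusted p = 0.033) and 1.13 against the vivarium control (0.01), and Hsd17b7 was lower than in the vivarium control (-1.23, adjusted p = 0.013).

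Across arrays the members moved together to different degrees, which is given as a description, since arrays of the same groups share their stage and gravity. Over the 19 mammary arrays Fdps correlated at r = 0.96 with the mean of the other members, Mvd at 0.91, Acat2 at 0.75, Idi1 at 0.73, Fdft1 at 0.69, Pmvk at 0.46 and Mvk at 0.31. Over the 20 livers Fdft1 stood at 0.91, Acat2 and Fdps at 0.90, Idi1 at 0.86, Mvd at 0.84, Pmvk at 0.77 and Mvk at 0.48. Adipose tissue (19 arrays) had Fdps at 0.83, Acat2 at 0.78, Fdft1 at 0.76, Idi1 at 0.69, Pmvk at 0.60, Mvd at 0.34 and Mvk at -0.23. Mvk had the lowest value in each tissue.

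The genes outside the set whose pattern was most like the members' mean differed by tissue. In liver they were Fasn, the fatty acid synthase (r = 0.94), and the sterol genes Nsdhl (0.94), Msmo1 (0.92), Cyp51 (0.90) and Dhcr7 (0.89), where the median over all other genes was 0.00. In the mammary gland they were Eif4e, the cap-binding translation factor (0.95), Tmem97 (0.93), and Slc28a3, Uhrf1 and Bcar1 (0.92 each), with a median of -0.14. In adipose tissue they were Tmem254 (0.89), Tlcd1 and Ptgr3 (0.87 each), and Acss2 and Nme1 (0.86 each), with a median of 0.03.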

How the data were processed

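Total RNA was extracted with TRIzol (mammary gland, liver) or RNeasy Lipid (adipose tissue) and amplified with the NuGEN Ovation Biotin system, per the labels' protocols. The authors deposited log2 signals made with RMA, per the submitters' processing notes; its version and the arrays processed together are not given in the sources used here, so an offset between array sets cannot be told apart from separate processing. All 72 columns of the 31042 probe sets were used except M210H and A210H, left out by the rule that defines the gene set. Of the probe sets 20826 had 1 gene symbol, 436 several and 9780 none, in an annotation that can be old. The number of arrays limits the precision.

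Tests used limma, version 3.58.1, under R version 4.3.3 (group means model, lmFit and eBayes, two-sided, Benjamini-Hochberg over all probe sets). Each tissue was fitted alone (19 mammary, 20 liver and 19 adipose arrays), the microgravity set alone (12), and the 3 tissues together for comparisons between them. Errors are SD over arrays for means and SE from limma for differences. The code was tested on simulated data. The members and the lists of pathway genes and cell type markers were chosen with earlier results of these data known. The text names all members, up to 3 called genes with the largest change per pathway list, and the 5 genes most like the members in each tissue.

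Rat codes pair the tissues as the same animal. The correlation of deviations from group means between tissues of 1 code had a median of 0.13 over 57 pairs, and the fitted block correlation was 0.097. The letters of the microgravity set did not pair (0 of 12 pairs over 0.1). No columns were identical. Alternatives were array weights, another variance model, centring, repeated quantile normalization, a filter on dim probe sets, the mean of a gene's probe sets, fewer groups in the fit, M210H and A210H kept, arrays with markers of another tissue left out, a replicate block, and each array left out. The arrays left out for markers of another tissue were M212H, M50H, M56H, M52S, M57S, A48S, A217H, VIVA and VIVC. In the group of M57S the highest muscle mean was 5.70 (median 4.54). L55H, L214S and A55H were kept in that alternative, as was an array in microgravity whose hepatocyte genes averaged 5.02 (group median 3.36). The tests within liver had no such alternative.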

Additional observations from a re-analysis of the deposited data

Results flagged for a closer look

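Of 105 groups of a gene checked for an array far from the rest, 8 had one, where chance alone gives about 1 in 20. Acat2 read 10.65 in M214S, above 10.33 to 10.42 in the other lactating standardG mammary arrays, and 8.96 in FDSA, below 9.40 to 9.49 in the other flight controls. Pmvk read 6.01 in M216S (others 6.95 to 7.19) and 8.23 in L57S, a pregnant standardG liver (others 7.66 to 7.73). Mvd read 4.51 in M203H, where the other lactating hyperG mammary arrays lay at 3.98 to 3.99. Idi1 read 6.69 in M56H, which carries hepatocyte markers, against 4.79 to 5.14. Fdps read 11.46 in L210H against 9.51 to 10.07 in the other lactating hyperG livers, and 8.06 in VIVC, which carries muscle markers, against 7.76 to 7.80.

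Of 49 tests of whether an effect differed between conditions or tissues 18 were called. The share of all probe sets called varied between these tests. Stage by gravity had 4.03% in mammary gland, 0.126% in liver and 0% in adipose tissue. The stage effect of mammary gland against liver and adipose tissue had 22.1% and 21%, and the gravity effect 4.7% and 4.67%. The stage effect in the mammary gland, with its sign, was lower at hypergravity for Acat2 (-1.80), Mvd (-2.26), Idi1 (-2.44) and Fdps (-2.03). At standard gravity it was larger in mammary gland than in liver for Acat2 (0.94), Mvd (1.52), Idi1 (3.10) and Fdps (2.12), and larger than in adipose tissue for Acat2 (0.96), Mvd (2.16), Idi1 (3.56) and Fdps (1.83). The effect of hypergravity in lactation was more negative in mammary gland than in liver for Acat2 (-1.34), and more negative than in adipose tissue for Acat2 (-2.33), Mvd (-2.30), Idi1 (-2.35), Fdps (-2.11) and Fdft1 (-1.48). Several of these share arrays and do not add independent evidence to each other.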

How the results depend on the processing

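Over 1491 alternatives run for called genes, 1384 kept direction and call, 107 lost the call and 0 reversed. Of 2566 run for genes not called, 31 gained a call. With only the groups compared in the fit, calls among the 7 genes went from 2 to 1 for the mammary stage effect at hypergravity, from 4 to 2 for that of liver, from 4 to 0 for gravity in lactating liver from 1 to 0 for mammary gland against adipose tissue in pregnancy, and from 4 to 3 for the stage difference between mammary gland and adipose tissue. With M210H and A210H kept, the gravity difference between mammary gland and liver went from 1 to 0, and the stage differences of mammary gland from liver and from adipose tissue each from 4 to 3 (Acat2 was lost in all of these). For the mammary stage effect at hypergravity the count stayed 2, with Acat2 lost (adjusted p = 0.17) and Mvd gained (-0.52, adjusted p = 0.036).

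Leaving out 1 array at a time gave 4 to 5 calls for the mammary stage effect at standard gravity, 1 to 3 at hypergravity, 5 to 5 for gravity in lactation and 4 to 4 for their interaction. In liver it gave 1 to 5 for stage at hypergravity, 1 to 5 for gravity in lactation and 0 to 3 for the interaction. There, 639 to 1136, 34 to 244 and 10 to 119 of all probe sets were called. Between tissues it gave 3 to 4 for the stage differences, and 0 to 1 (liver) and 4 to 5 (adipose tissue) for the gravity differences. It gave 3 to 5 for lactating mammary gland against liver, 5 to 6 against adipose tissue and 6 to 7 for pregnant liver against adipose tissue. All probe sets called were 6101 to 7606 (liver) and 5715 to 7201 (adipose tissue) for the stage differences. For the gravity differences they were 1136 to 1438 and 1165 to 1454. The tissue comparisons had 10279 to 10494, 8544 to 8746 and 9997 to 11307, in the order given.

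With the rat code as a replicate block the lactating mammary gland was lower than liver for 5 genes instead of 4, and no other count of calls among the 7 genes changed. With the letter as a replicate block the microgravity set had 0 calls in each comparison. Dim probe sets limit Mvk everywhere and Mvd where it lies near the array median.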
